A study of Mus musculus with 8 samples.

Results

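Weak insulation minima of the activated B cell genome were examined, that is, shallow local lows in the number of contacts that cross a position. The 2 libraries taken 3 h after stimulation were summed and the autosomes were divided into bins of 50 kb. Each bin received an insulation score, the log2 of the mean read-pair count between the 10 bins before and the 10 bins after it over the mean of its chromosome. Local minima of this score at least 3 bins apart with a prominence (the rise needed on both sides to leave the minimum) from 0.2 to under 0.5 were chosen, which gave 730 weak minima among 46342 bins with a score. A further 1528 minima had a prominence of 0.5 or more and are called strong minima. The members were selected on the 3 h contact counts, so their values at 3 h are a description, and changes were tested only among the other 3 groups.

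The study followed splenic B cells of C57BL/6 mice by in situ Hi-C, which ligates and sequences pairs of DNA ends that lie close in the nucleus, to ask how the folding of the genome changes between activation and the first division. LPS (lipopolysaccharide, a component of bacterial walls) was added to activate the cells, and 4 groups of 2 libraries each were analysed here. Activated undivided cells made up the groups taken after 3 h, 10 h and 33 h (imminent division), and the fourth group (pre-S) was sorted at 33 h from cells that had not entered S phase. Pre-S cells were from mice labelled C57BL/6 FUCCI (the methods give a C57BL/6 Pep3b background for the study's mice), which carry fluorescent reporters of the cell cycle, so that reporter strain, sorting gate and group cannot be told apart, and all 4 groups had received LPS, with no unstimulated library among them. The contact files hold no expression, so the cell type could not be checked against its markers.

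Mammalian chromosomes fold into topologically associating domains (TADs), stretches whose parts contact each other more than they contact their neighbours. Many borders between them are set by the DNA-binding protein CTCF, which stops the loop-extruding ring complex cohesin, preferentially when CTCF motifs on either side of a loop point toward each other. Borders also occur at active gene starts and where chromatin passes between the gene-rich A and the gene-poor B compartment, and domains are taken apart as chromosomes condense for mitosis. A weak minimum is a place where the score rises only mildly on leaving it, such as a border inside a larger domain may give.

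Over both compartments together, CTCF motif matches were about as common at weak as at strong minima. Within B they were less common at weak minima, as given below. A match to the CTCF consensus on either strand lay in 34.8% of the 730 weak minima and 35.7% of strong minima, against 20.6% of all 46342 bins. The 9-letter CTCF core AGGNGGCGC, which can overlap the consensus, was found on either strand in 34.5% of weak minima, 33.0% of strong minima and 26.0% of all bins. In the bins 500 kb before and after weak minima the core was found in 30.3% and 30.5%, and the consensus in 25.9% and 24.7%. Of the 27 members named below for a change in a tested comparison, 10 held a consensus match. One match each, the nearest to the bin's middle, is shown for 9 of these because they give the letters behind these shares. Each is 60 bases of GRCm38 (RefSeq), written 5′ to 3′ on the strand given, with the match in capitals:
Sephs1, chr2:4864674-4864733, minus strand: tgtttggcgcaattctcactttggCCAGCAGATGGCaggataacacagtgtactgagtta
Anapc7, chr5:122401443-122401502, plus strand: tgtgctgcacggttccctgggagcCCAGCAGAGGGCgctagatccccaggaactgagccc
Tmem230, chr2:132215344-132215403, minus strand: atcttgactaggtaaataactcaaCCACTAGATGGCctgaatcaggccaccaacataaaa
Nrbf2, chr10:67265039-67265098, plus strand: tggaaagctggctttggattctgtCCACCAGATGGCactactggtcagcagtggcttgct
Gpnmb, chr6:49003571-49003630, plus strand: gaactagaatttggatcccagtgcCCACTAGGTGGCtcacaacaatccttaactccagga
Eomes, chr9:118489829-118489888, minus strand: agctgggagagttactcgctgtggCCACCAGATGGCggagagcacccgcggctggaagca
Sept9, chr11:117366591-117366650, plus strand: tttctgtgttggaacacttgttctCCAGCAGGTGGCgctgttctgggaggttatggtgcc
Tgfbr1, chr4:47419728-47419787, plus strand: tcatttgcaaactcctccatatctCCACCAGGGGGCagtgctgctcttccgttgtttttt
Cited2, chr10:17719450-17719509, minus strand: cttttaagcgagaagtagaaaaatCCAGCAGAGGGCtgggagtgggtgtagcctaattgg
The match at Anapc7 lay in an intron of Arpc3 and that at Tmem230 in an intron of Gm14051, an antisense gene, and the other 7 lay between annotated genes (GENCODE M21). A match is a description of letters and not a bound site.

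Around the weak minima the matches were ordered by strand. In the bin 50 kb before the minimum there were 0.24 minus-strand and 0.123 plus-strand consensus matches per bin, and in the bin 50 kb after it 0.134 and 0.221. In the minimum itself there were 0.263 and 0.225. Matches on either side thus more often pointed away from the minimum, into the flanking domains, and at 500 kb the values were 0.162 and 0.174 before and 0.156 and 0.142 after it. Strong minima had the same order, with 0.243 minus-strand and 0.149 plus-strand matches per bin before and 0.186 and 0.224 after the minimum.

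**Figure D1:**
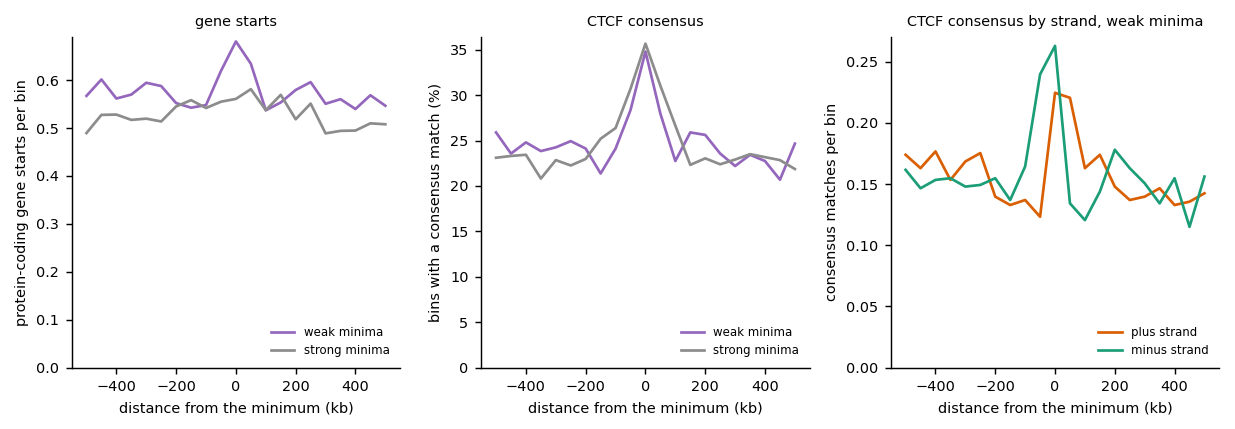
Features by distance from the minimum in kb, for 730 weak and 1528 strong minima: protein-coding gene starts per 50 kb bin (left), percent of bins with a CTCF consensus match (middle) and consensus matches per bin by strand at weak minima (right). Gene starts reach 0.681 per bin at the weak minimum, against 0.561 at the strong minimum, and the strands trade places across the weak minimum.

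Weak and strong minima differed in their compartment setting. Compartments were assigned from the leading component of contacts at 100 kb over all 8 libraries, with A taken as the side with more gene starts. The component changed sign within 200 kb of 26.0% of weak minima, close to the 27.5% of all bins, whereas it did so at 56.4% of strong minima. Of the weak minima 62.6% lay in A, against 58.0% of strong minima and 47.8% of all bins. A protein-coding gene start was present in 44.1% of weak minima (322 of 730), 37.4% of strong minima and 27.8% of all bins, and 211 weak minima were covered by no protein-coding gene at all. Median GC content was 43.3% at weak and 43.1% at strong minima and 41.4% over all bins.

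The shares were also read within each compartment. Within A, 45.5% of 457 weak minima held a consensus match against 29.7% of all A bins, and within B 16.8% of 273 against 12.3%. Gene starts were found in 59.5% of weak minima in A, against 45% of A bins, and in 18.3% of those in B, against 12% of B bins. The core was found in 45.5% of weak minima in A, against 36.9% of A bins. In B it was found in 16.1% of weak minima and 16.1% of all B bins. At strong minima the contrast between compartments was smaller, with consensus matches in 43.4% of those in A and 25.3% of those in B. The core was found in 39.7% and 23.9% of them. These shares are descriptions, and no test was made on them.

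The libraries held 88703088 to 218945191 read pairs, and between 70.9% and 75.1% of autosomal pairs joined ends on the same chromosome. Imminent division replicate 2 stood apart in its sex chromosomes, with 3.74% of ends on X and 0.0490% on Y against 2.39% to 2.84% and 0.0804% to 0.123% in the other 7 libraries, although the study's methods state male mice. Only autosomes were used, and median changes without this library are given beside the counts of changed minima. Standard errors and p-values rest on 2 libraries a group, which the study calls biological replicates.

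The median prominence of the members was 0.307. Of them 343 had a prominence from 0.2 to 0.3, 226 from 0.3 to 0.4 and 161 from 0.4 to 0.5. Just inside the lower limit lay a bin of chromosome 17 without a protein-coding gene (prominence 0.2001), Barhl2 (0.2006) and the Mybphl and Psrc1 bin (0.2009). Just outside it lay Slc36a1 (0.1997), a bin of chromosome 8 without one (0.1997) and the Fbp1 and Fbp2 bin (0.1996). At the upper limit the nearest members were the Cd226 and Dok6 bin (0.4998), the Gsdma and Psmd3 bin (0.499) and Inpp5k (0.497), and the nearest outside it were Cyp4x1 (0.5005), a bin of chromosome 9 without a protein-coding gene (0.503) and the Masp2 and Tardbp bin (0.503). The median distance to the nearest strong minimum was 650 kb (quartiles 450 and 1000 kb), and 247 members (33.8%) lay within 500 kb of one. The median insulation score at 3 h was -0.17 at weak and -0.94 at strong minima.

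Depth was followed in every library with a measure that the tests could use on raw counts. It is the log2 ratio of contacts in 2 flank squares, centred 500 kb before and after the minimum, to contacts in the centre square that crosses it. A positive depth means fewer contacts across the minimum than beside it. All squares hold the same distances, so library size and the decay of contacts with distance cancel. Flank squares 300 kb away, used as an alternative, share bin pairs with the centre square, which those 500 kb away do not. Of the 730 members 708 could be measured this way, because the flanks of 22 ran into bins left out or chromosome ends. At 3 h, where the members were chosen, the median depth was 0.25 and 0.24 in replicates 1 and 2, and 519 of the 708 members had a depth above 0 in each library. The rest had a negative depth because their flanks held fewer contacts than the shallow minimum between them. A second measure, the shoulder depth, is the smaller rise from the minimum to the highest 3 h score within 500 kb on either side, and was available for 725 members. It reads the same centre contacts as the depth, so that among members called for a change in depth its direction is in part fixed by the call.

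The members were looked for in the profiles of the other groups. A member was counted as found again where the summed libraries of a group had a minimum with a prominence of 0.2 or more within 1 bin. At 10 h this held for 551 of 730 members (75.5%), at imminent division for 433 (59.3%) and at pre-S for 509 (69.7%). For strong minima the shares were 93.3%, 86.3% and 88.5%, and 14.8%, 14.8% and 15.4% of all bins lay as close to a minimum. The cut of 0.2 is also the lower limit of the rule, so weak minima sit nearer to it than strong ones. With a cut of 0.1 the shares were 86.8%, 74.9% and 80.7% for weak and 94.0%, 87.7% and 90.1% for strong minima. In the very same bin 480 (65.8%), 322 (44.1%) and 391 members (53.6%) were found again. In all 3 groups 370 members (50.7%) were found again, 112 (15.3%) in none, and 89 (12.2%) at 10 h and pre-S but not at imminent division. Members with a prominence from 0.2 to 0.3 were found again at imminent division in 46.4% of cases, those from 0.3 to 0.4 in 69.9% and those from 0.4 to 0.5 in 72.0%.

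Membership depended on the scale of the squares and on the coverage of the bins. With 5 bins on each side 544 members (74.5%) were minima of the 3 h profile within 1 bin and 122 of them weak, and with 20 bins 117 of 730 were minima and 87 of them weak. When contacts were divided by the interchromosomal coverage of both bins, 511 members (70.0%) were still minima of the 3 h profile with a prominence of 0.2 or more and 365 of them weak, against 89.2% of strong minima. Minima chosen in 3 h replicate 2 alone had a median shoulder depth of 0.287 there and 0.269 in replicate 1, and those chosen in replicate 1 had 0.284 there and 0.276 in replicate 2.

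Over all members, the trough was shallower at imminent division than at 10 h and pre-S. The median depth of the 708 members in replicates 1 and 2 was 0.24 and 0.22 at 10 h, against 0.19 and 0.20 at imminent division, whereas pre-S had 0.26 and 0.25. The imminent division libraries lay below those of 10 h and pre-S, and pre-S lay above 10 h. They also lay below 3 h, but the 3 h libraries chose the members. With flanks 300 kb away, 10 h (0.32 and 0.31) and pre-S (0.31 and 0.30) overlapped, while imminent division (0.25 and 0.26) was still lowest. The median shoulder depth, read over 725 members, was 0.29 and 0.30 at 3 h, 0.29 and 0.28 at 10 h, then 0.24 and 0.25 at imminent division, with 0.30 and 0.29 at pre-S. A shoulder depth of 0.2 or more was held by 566 and 537 members at 10 h, by 434 and 448 at imminent division and by 537 and 524 at pre-S.

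**Figure D2:**
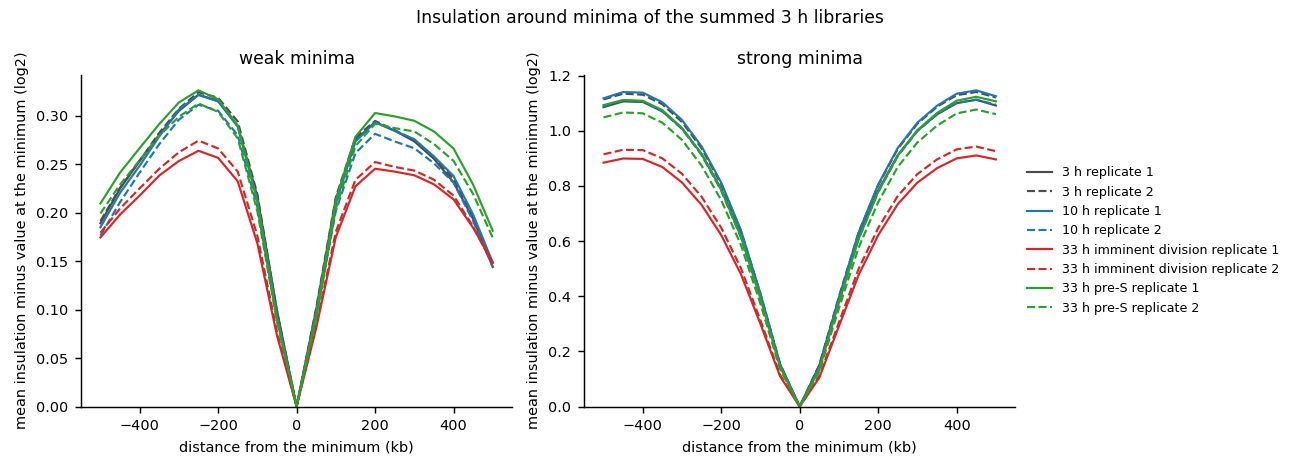
Mean insulation score relative to the minimum (log2, vertical) by distance from it in kb, for weak (left) and strong minima (right), with 1 line per library (solid, replicate 1; dashed, replicate 2). Both imminent division lines run below those of 10 h and pre-S within 350 kb of the weak minima. The 3 h libraries chose the minima, and the vertical scales of the panels differ.

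The median depth, as the mean of 2 libraries per member, was 0.23 for weak and 1.06 for strong minima at 10 h, then 0.19 and 0.85 at imminent division, with 0.26 and 1.03 at pre-S, so that strong minima were far deeper in each group. Between 10 h and imminent division the median change in depth was -0.029 at weak minima, -0.21 at strong minima and -0.016 over all 45306 bins tested. At weak minima it was -0.052 with flanks 300 kb away and -0.012 with coverage-corrected contacts, against -0.012 and -0.0061 over all bins. With coverage-corrected contacts 52.5% of weak minima and 51.4% of all bins were shallower at imminent division. Between 10 h and pre-S the median change was 0.012 at weak minima, -0.047 at strong minima and -0.015 over all bins. Imminent division minus pre-S gave -0.047 at weak minima, -0.16 at strong minima and -0.0033 over all bins. From 3 h to 10 h, which is a description because 3 h chose the members, the median change was -0.0095 at weak and 0.0012 at strong minima. For members chosen without 3 h replicate 2 the pre-S change from 10 h was -0.00023 and imminent division minus pre-S -0.030, and the pre-S change ranged from 0.0032 to 0.021 when 1 library was left out.

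**Figure D3:**
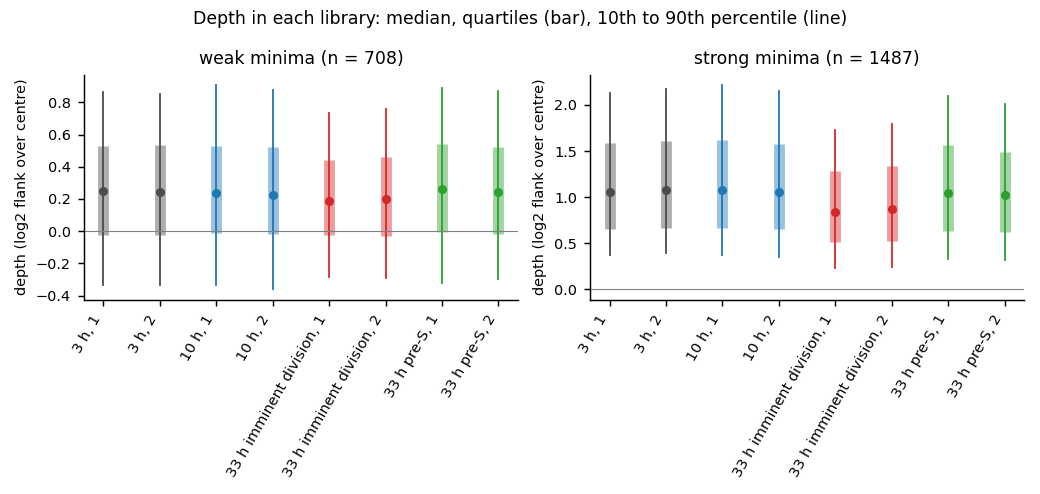
Depth (log2 of flank over centre contacts) in each of the 8 libraries for 708 weak (left) and 1487 strong minima (right). Points are medians over minima, bars quartiles and lines the 10th to 90th percentile; the weak minima centre on 0.19 to 0.26 and reach below 0, the strong minima centre on 0.84 to 1.08.

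Single minima were then tested for a change of depth with edgeR's quasi-likelihood test on the centre and flank counts, with the false discovery rate (FDR) controlled at 5% over all 45306 bins. The first question was what changed between 10 h and imminent division. Depth was higher at 163 members (23.0%) and lower at 227 (32.1%) of 708. Over all bins tested 25.7% were called higher and 32.3% lower, so with these flanks the weak minima were called about as often as any bin. At flanks 300 kb away 16.5% of members were called higher and 38.5% lower, against 21.2% and 27.0% of all bins. Among 1487 strong minima 6.52% were called higher and 67.9% lower. Without imminent division replicate 2 the median change in depth was -0.032 at the members and -0.019 over all bins.

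The calls can be described by the sign of the depth at 3 h, a value of the libraries that chose the members, so that no test was made on this split. Of the 517 members with a positive mean depth at 3 h, 204 (39.5%) fell and 79 (15.3%) rose by imminent division. Of the 191 with a negative depth 84 (44.0%) rose and 23 (12%) fell. All bins showed the same shift toward 0, with 50.6% of bins above 0 called lower and 41.5% of those below 0 called higher. A rise from a negative depth means that the excess of contacts across the minimum over those beside it shrank. The shoulder depth rose at 88 of the 163 members called higher and fell at 75, and it fell at 172 (75.8%) of the 227 called lower, against 63.6% of all 725 members.

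**Figure D4:**
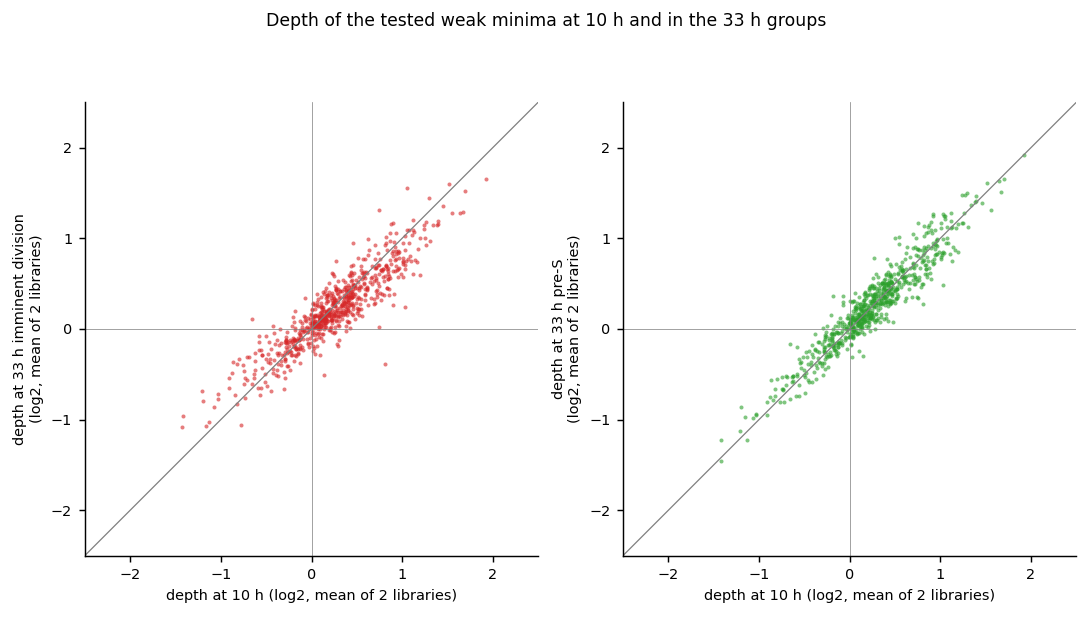
Depth of each of the 708 tested weak minima at 10 h (horizontal) against imminent division (left) and pre-S (right), as means of 2 libraries in log2 units, with the line of equal depth. At imminent division points above 0 tend to lie below the line and points below 0 above it; among members positive at 3 h the median change was -0.066, among those negative 0.077.

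Members named for a comparison were taken from those whose libraries did not overlap between its groups. Their separation in that comparison thus follows from the naming. Among the members that rose most firmly, the bin chr1:151399348-151449910 holds the starts of Swt1, an RNA endonuclease gene, and Trmt1l, a relative of tRNA methyltransferases. Its depth was -0.82 and -0.69 at 3 h, -0.57 and -0.74 at 10 h, then 0.05 and 0.17 at imminent division, with -0.18 and -0.16 at pre-S. The sign turned only at imminent division, where both libraries exceeded all others. The log2 change from 10 h to imminent division was 0.77 (SE 0.049, edgeR FDR 5.09e-17), and 0.39 with flanks 300 kb away. The shoulder depth rose with it, from 0.25 and 0.14 at 10 h to 0.40 and 0.50.

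At chr2:4849420-4901291, the bin of Sephs1, which encodes a selenophosphate synthetase homologue, the trough was already deep and deepened. Its depth was 0.60 and 0.50 at 3 h, 0.79 and 0.71 at 10 h, then 1.27 and 1.34 at imminent division, with 1.18 and 1.15 at pre-S. Both 33 h groups lay above both earlier groups. The change from 10 h to imminent division was 0.56 (SE 0.047, edgeR FDR 2.98e-14), and the shoulder depth went from 0.38 and 0.35 to 0.60 and 0.67. The single consensus match of this bin is the Sephs1 line among the sequences above.

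The bin chr13:23699500-23750089 holds Hfe, which acts in iron balance, and the histone genes Hist1h1c, Hist1h3c and Hist1h2bb, whose transcription accompanies DNA replication. Its depth rose from 1.1 and 1.00 at 10 h to 1.56 and 1.54 at imminent division, with 1.25 and 1.18 at pre-S and 0.79 and 0.83 at 3 h. That 10 h and imminent division did not overlap follows from the rule that named this bin. The change was 0.51 (SE 0.048, edgeR FDR 1.15e-12). Its shoulder depth did not follow, with 0.18 and 0.18 at 10 h and 0.18 and 0.08 at imminent division.

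The other 5 named members that rose had negative depths at 10 h and lie in A. At Tmem230 (chr2:132199885-132249950), a bin that also reaches into Pcna, the replication clamp gene, depth was -0.60 and -0.53 at 3 h, -0.59 and -0.56 at 10 h, then -0.02 and -0.13 at imminent division, with -0.48 and -0.55 at pre-S. Imminent division alone stood apart, which the naming rule in part required. The shoulder depth rose from 0.33 and 0.26 at 10 h to 0.52 and 0.49. Anapc7, encoding a subunit of the anaphase-promoting complex, moved from -0.50 and -0.51 at 10 h to -0.10 and -0.05, but its shoulder depth stayed between 0.17 and 0.21 in these libraries. At Nrbf2, an autophagy gene, depth went from -0.83 and -0.90 to -0.36 and -0.38. At Gpnmb, a membrane glycoprotein gene, it went from -0.42 and -0.43 to 0.05 and 0.01, a call that was lost with flanks 300 kb away (log2 change 0.032 in place of 0.45). A bin inside Mindy2, a deubiquitinase gene, went from -1.19 and -1.22 to -0.68 and -0.68. Shoulder depth at Nrbf2 was 0.34 and 0.38 at 10 h and 0.32 and 0.31 at imminent division. At Gpnmb it was 0.34 and 0.29, then 0.30 and 0.34, and at Mindy2 0.09 and 0.06, then 0.06 and 0.05. With flanks 300 kb away the change in depth was 0.26 in place of 0.50 at Tmem230, 0.18 in place of 0.50 at Nrbf2 and 0.14 in place of 0.52 at Mindy2.

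The 8 named members that fell all had a positive depth at 10 h. At Acsl6, a long-chain acyl-CoA synthetase gene (chr11:54300058-54350021), depth was 0.84 and 0.85 at 3 h, 0.76 and 0.73 at 10 h, then 0.00485 and 0.04 at imminent division, with 0.32 and 0.38 at pre-S. The groups after 3 h were fully separated, with pre-S between 10 h and imminent division. That 10 h did not overlap with either 33 h group follows from the rule that named this bin in both comparisons. The fall to imminent division was -0.72 (SE 0.037, edgeR FDR 5.76e-21), or -0.44 with flanks 300 kb away. The shoulder depth fell less, from 0.39 and 0.38 to 0.20 and 0.25.

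A larger fall was at the protocadherin beta cluster, a tandem array of neuronal adhesion genes (Pcdhb9 to Pcdhb14, chr18:37399673-37450725). Its depth was 0.90 and 0.63 at 3 h, 0.71 and 0.91 at 10 h, then -0.41 and -0.36 at imminent division, with 0.32 and 0.23 at pre-S. The imminent division libraries alone were below 0, and the change from 10 h was -1.20 (SE 0.060, edgeR FDR 2.38e-20), or -0.63 with flanks 300 kb away. Its shoulder depth of 0.41 and 0.55 at 10 h stood against 0.41 and 0.33 at imminent division. The genes of this tandem array are near copies of each other, so reads there can be hard to place. Whether this bears on the change was not tested.

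Another 6 named members fell. A bin inside Dscaml1, a neuronal adhesion gene (chr9:45450067-45499644), went from 1.00 and 1.05 at 10 h to 0.29 and 0.20, and its shoulder depth from 0.23 and 0.23 to 0.09 and 0.11. Hmcn1, an extracellular matrix gene, went from 0.85 and 0.95 to 0.31 and 0.21, while its shoulder depth was 0.37 and 0.35 before and 0.40 and 0.42 after. Ubr2, a ubiquitin ligase gene, went from 0.90 and 0.92 to 0.39 and 0.39. The bin inside Dnm3, a dynamin gene, went from 1.26 and 1.13 to 0.52 and 0.67, and that reaching into Adcy9, an adenylyl cyclase gene, from 0.26 and 0.30 to -0.22 and -0.12. Shoulder depth at Ubr2 was 0.34 and 0.35 at 10 h and 0.33 and 0.37 at imminent division. At Dnm3 it was 0.60 and 0.47, then 0.30 and 0.33, and at Adcy9 0.19 and 0.25, then 0.04 and 0.05. The bin reaching into Gm11146 lost its trough, with a shoulder depth of 0.24 and 0.28 at 10 h and -0.0032 and 0.01 at imminent division. With flanks 300 kb away the falls were -0.35 in place of -0.65 at Gm11146, -0.33 in place of -0.53 at Ubr2 and -0.30 in place of -0.45 at Adcy9.

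**Figure D5:**
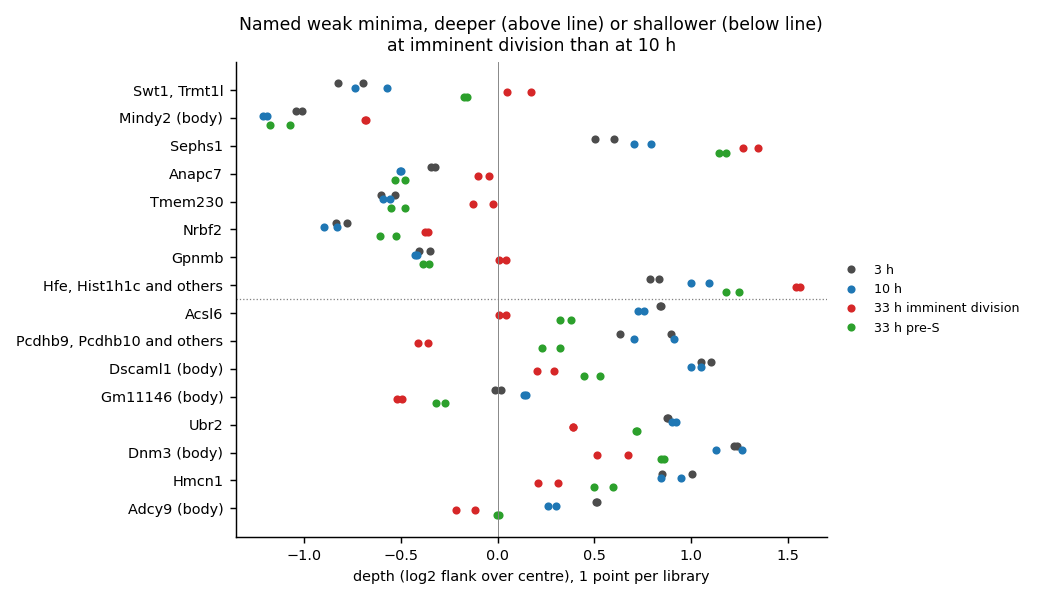
Depth (log2 flank over centre, 1 point per library, coloured by group) of the 16 weak minima named for the comparison of imminent division with 10 h, with the risen above and the fallen below the dotted line. The members are labelled by gene starts or, where none lies in the bin, by a gene body overlapping it; the rule that named them required imminent division and 10 h points that do not overlap, and in 6 of the 8 risen rows the 10 h depth is below -0.4.

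Between 10 h and pre-S, depth was higher at 157 members (22.2%) and lower at 116 (16.4%). Over all bins tested the shares were 17.2% higher and 20.3% lower, and among strong minima 11.1% and 26.2%. Which direction held more members depended on the scaling, since TMM factors gave 115 higher (16.2%) and 137 lower (19.4%), against 12.4% and 23.6% of all bins under the same factors. Over all bins the balance also turned, to 13.9% higher and 12% lower with DESeq2 and to 17.4% and 16.6% with coverage in the offsets. The shoulder depth increased at 131 (83.4%) of the 157 members called higher, against 57.5% of all 725 members. The calls rest on 2 libraries a group. Without 10 h replicate 2 the median change was 0.0062 at the members and -0.015 over all bins. Without pre-S replicate 1 it was 0.0032 and -0.016, in place of 0.012 and -0.015 with all libraries.

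At Eomes, a T-box transcription factor gene of T and NK cells (chr9:118449972-118499260), depth was 0.08 and 0.06 at 3 h, -0.09 and -0.05 at 10 h, then 0.33 and 0.35 at imminent division, with 0.37 and 0.36 at pre-S. Both 33 h groups lay above all earlier libraries. The change from 10 h to pre-S was 0.43 (SE 0.051, edgeR FDR 5.58e-09), or 0.25 with flanks 300 kb away, and the shoulder depth rose from 0.32 and 0.37 to 0.67 and 0.58. Zfp770, a zinc finger gene, had the same pattern, with 0.32 and 0.23 at 10 h, then 0.76 and 0.73 at imminent division, with 0.79 and 0.77 at pre-S. A bin inside Cep128, a centriole gene, rose from -0.15 and -0.22 to 0.32 and 0.41 at pre-S, with 0.22 and 0.17 at imminent division. With flanks 300 kb away the change to pre-S was 0.33 in place of 0.51 at Zfp770 and 0.29 in place of 0.55 at Cep128.

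Falls to pre-S were led by bins inside Dscaml1, at 0.53 and 0.45 in pre-S, and of Acsl6, both given above. A bin inside Hdac9, a histone deacetylase gene, went from 0.47 and 0.48 at 10 h to 0.07 and 0.08 at pre-S, and one reaching into Hnrnpr, an RNA-binding protein gene, from 0.83 and 0.68 to 0.36 and 0.32. The bin overlapping the end of Sept9, a septin gene, held 4 consensus matches and went from 0.09 and 0.11 to -0.22 and -0.27. Its shoulder depth of 0.24 and 0.24 at 10 h became -0.02 and -0.14 at pre-S and -0.22 and -0.15 at imminent division, so the 3 h minimum was no longer below both its shoulders there. With flanks 300 kb away these falls were -0.24 in place of -0.40 at Hdac9, -0.27 in place of -0.41 at Hnrnpr and -0.20 in place of -0.34 at Sept9.

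The comparison of both 33 h groups set all undivided cells at 33 h, a bulk population that can itself include cells before S phase, against cells sorted before S phase. At imminent division depth was higher than at pre-S at 91 members (12.9%) and lower at 221 (31.2%), against 20% and 23.2% of all bins and 3.70% and 60.6% of strong minima. Of the 221 members with a lower depth 207 (93.7%) also had a lower shoulder depth, against 72.1% of all 725 members. TMM factors gave 103 higher (14.5%) and 158 lower (22.3%), and turned the balance over all bins to 22.0% higher and 17.3% lower. Flanks 300 kb away gave 52 higher (7.36%) and 250 lower (35.4%), against 16.2% and 19.9% of all bins. DESeq2 gave 58 higher (8.19%) and 159 lower (22.5%), against 13.0% and 16.4% of all bins. Without pre-S replicate 1 the median difference was -0.045 at the members and -0.0044 over all bins, in place of -0.047 and -0.0033. Without imminent division replicate 2 it was -0.051 and -0.0057.

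Neto1, which encodes an auxiliary subunit of glutamate receptors (chr18:86350184-86400043), led the members lower at imminent division. Its depth was 0.54 and 0.50 at 3 h, 0.45 and 0.55 at 10 h, then 0.28 and 0.30 at imminent division, with 1.03 and 0.97 at pre-S. The pre-S libraries alone were high, which the naming rule in part required. The difference between the 33 h groups was -0.71 (SE 0.051, edgeR FDR 1.14e-15), and the shoulder depth was 0.26 and 0.28 at imminent division, with 0.83 and 0.73 at pre-S.

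A bin without a protein-coding gene, chr3:38250025-38300173, had depths of 0.76 and 0.75 at imminent division against 1.25 and 1.24 at pre-S. Cited2, a transcriptional co-regulator gene, had 0.20 and 0.11 against 0.50 and 0.51, and shoulder depths of 0.28 and 0.22 against 0.46 and 0.44. The bin overlapping the end of Tgfbr1, a receptor kinase gene, had 0.73 and 0.75 against 1.13 and 1.09. The protocadherin beta bin is the fifth of these. On the other side, higher at imminent division, stood Anapc7, the Mindy2 bin, Tmem230 and Gpnmb, all described above, and the bin of Mrpl13 and Mtbp, a mitochondrial ribosomal protein gene and an MDM-binding protein gene, with -1.05 and -1.1 against -1.39 and -1.53. With flanks 300 kb away the differences between the 33 h groups shrank from -0.37 to -0.21 at Tgfbr1, from 0.43 to 0.24 at Tmem230, from 0.40 to 0.13 at Gpnmb, from 0.38 to 0.12 at Mrpl13, from 0.44 to 0.0996 at Mindy2 and from -0.66 to -0.36 at the protocadherin beta bin.

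The deepest members in the mean of the 6 libraries outside 3 h had depths far above their prominence, since the flanks 500 kb away held many more contacts than the minimum. Mysm1, a histone deubiquitinase gene (chr4:94949856-94999723), had a prominence of 0.298 but depths of 1.98 and 1.86 at 10 h, then 1.65 and 1.65 at imminent division, with 1.97 and 1.86 at pre-S. The fall to imminent division was -0.26 (edgeR FDR 9.95e-06) and both pre-S values lay within the 10 h range. Pigm, a gene of GPI anchor synthesis, followed with 1.70 and 1.69 at 10 h and 1.57 and 1.47 at imminent division. Hhipl2 had 1.66 and 1.62 and then 1.19 and 1.38, and the bin of Elmo3, Fhod1 and Slc9a5 had 1.72 and 1.62 and then 1.25 and 1.33. Another of the 5, a bin of chromosome 4 in B without a protein-coding gene, ranked between Pigm and Hhipl2. It had 1.53 and 1.5 at 10 h and 1.59 and 1.62 at imminent division, a difference that did not pass the test (edgeR FDR 0.129).

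Few genes of the B cell response start in a weak minimum. Of 19721 autosomal protein-coding genes in bins with a score, 497 (2.52%) start in one and 855 (4.34%) in a strong minimum. None of 30 B cell transcription factor genes, 12 NF-kappaB genes, 33 cell cycle and replication genes and 20 CTCF, cohesin and condensin genes start in a weak minimum, while 3 of the transcription factor genes (Bcl6, Myc and E2f7) start in a strong one. Of 31 genes of the B cell receptor, Toll-like receptors and surface proteins 1 starts in a weak minimum, and of 75 cytoplasmic ribosomal protein symbols 3 do (Rpl9, Rps2 and Rpl3l, the last a paralogue in the same bin as Rps2). With shares this small the lists are too short to be set apart from all genes.

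The surface gene is Cd180, whose product is a Toll-like receptor homologue of B cells that takes part in their response to LPS. Its bin, chr13:102649852-102699999, had a prominence of 0.206 and depths of 0.22 and 0.35 at 3 h, 0.31 and 0.29 at 10 h, then 0.50 and 0.55 at imminent division, with 0.66 and 0.54 at pre-S. Both 33 h groups were above all earlier libraries. The change from 10 h was 0.23 (SE 0.044, edgeR FDR 1.08e-05) to imminent division and 0.31 (SE 0.049, edgeR FDR 1.80e-06) to pre-S. At the Rps2 bin, depth was 0.30 and 0.42 at 10 h and 0.51 and 0.51 at pre-S (log2 change 0.15, SE 0.044, edgeR FDR 0.00749), and at Rpl9 no tested change passed the threshold.

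The setting of the members that rose, fell or were not called is given as a description. Of the 163 that rose to imminent division 74.8% were in A, of the 227 that fell 62.6% and of the 318 not called 56.9%. A gene start was present in 55.2%, 44.5% and 38.1% of them, a consensus match in 44.2%, 34.4% and 30.8%, and the CTCF core in 35.0%, 35.7% and 33.3%. For pre-S against 10 h the consensus shares were 46.5% of those that rose, 31.0% of those that fell and 32.0% of the others. For imminent division against pre-S they were 36.3%, 38.9% and 32.6%, so the order of risen and fallen members was not the same in each comparison. These shares were not tested.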

How the data were processed

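In situ Hi-C contacts of 8 libraries in 4 groups of 2 were analysed. The authors mapped the reads to mm10 through diffHic (with cutadapt and bowtie2), flagged duplicates with Picard, and filtered out unligated ends and fragments that were too long. The deposited values are counts of read pairs between 50 kb bins, unscaled and unbalanced, so mappability and coverage remain in them. The matrices name no coordinates, and their 53357 bins were rebuilt from MboI fragments of GRCm38, the assembly that mm10 names. Excluded were 756 autosomal bins with over 10% undetermined sequence or interchromosomal coverage more than 4 times above or below the median. Squares needed 75% of their bin pairs. Protein-coding genes came from GENCODE M21 (20807 gene starts placed).

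Changes of flank over centre counts were tested in R 4.3.3 by edgeR 4.0.16 (quasi-likelihood, robust, 1 coefficient per library plus flank by group, all 8 libraries, mean count of at least 10 in centre and flank). Each standard error was derived from the log2 change and the p-value of the edgeR test. It is not a separate estimate of the spread. DESeq2 1.42.0 was an alternative. Benjamini-Hochberg adjustment ran over all bins. Neighbouring bins share contacts and are not independent. Minima were found with scipy 1.17.1. No molecular identifiers were used, so read pairs may repeat molecules, and the median centre count of a member was 1000 to 3498 read pairs per library. Replicate numbers were not taken as pairs (correlations of same-numbered deviations -0.147 to 0.052).

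Named members were, per tested contrast and direction, those past FDR 5% whose libraries did not overlap between groups, in order of p (8 per direction for imminent division versus 10 h, 5 for the others), the 3 nearest on each side of a prominence limit, those holding the start of a listed gene, and the 5 deepest outside 3 h. The members, gene lists and tests were chosen with earlier results of these data known. Other stages of the study were not analysed here.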

Additional observations from a re-analysis of the deposited data

Results flagged for a closer look

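At 10 of the 191 members called in both comparisons with 10 h, depth was higher in one 33 h group and lower in the other, against 426 of 13440 among all bins called in both (5.24% and 3.17%; edgeR quasi-likelihood test, FDR below 5%). Both comparisons share the 10 h libraries, and opposite calls entail that the 33 h groups differ, so their own test adds no support. The firmest were Neto1, with a log2 difference between imminent division and pre-S of -0.71, the bin of chromosome 3 without a protein-coding gene, with -0.50, and Cited2, with -0.35. At Neto1 the change from 10 h was -0.21 to imminent division and 0.50 to pre-S. Reporter strain and sorting gate cannot be told apart from the pre-S group.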

How the results depend on the processing

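The number of weak minima was 1216 with 5 bins on each side, 543 with 20, 702 with coverage-corrected contacts and 768 with no bins left out (122, 87, 365 and 698 of the 730 members were weak again), and 740 to 814 when chosen from 1 library of 3 h. Counts found again stayed within 1.5 times under every alternative run. The median change from 10 h to imminent division was -0.052 with flanks 300 kb away and -0.012 with coverage-corrected contacts. Over all bins these were -0.012 and -0.0061. Leaving out 1 library gave -0.034 to -0.022 at the members. The pre-S change was -0.00023 for members chosen without 3 h replicate 2, and 0.0032 to 0.021 leaving out 1 library of the contrast. Imminent division minus pre-S gave -0.030 for members chosen without 3 h replicate 2 and -0.056 to -0.045 leaving out 1 library. Tested against a fold change of 1.1 (glmTreat), 190 (26.8%), 66 (9.32%) and 86 (12.1%) of 708 members were called, in place of 390, 273 and 312. The order is imminent division and pre-S against 10 h, then imminent division against pre-S. Of all 45306 bins 14714, 5192 and 6372 were called with glmTreat, in place of 26296, 17014 and 19575. Leaving out 1 library gave 302 to 403, 187 to 284 and 194 to 334, the lone library being assumed to vary like the other groups. With 1 library left out, the calls over all bins were fewest and most in the same fits as those of the members. These ranges alone thus do not set the members apart from all bins. DESeq2 called 299, 187 and 217 members and 21293, 11727 and 13341 of all bins. The replicate block gave 379, 265 and 303 members and 25768, 16395 and 18872 bins. With the 10 h numbers crossed, an alternative chosen after seeing the data, 398, 280 and 322 members were called. The bins called were then 26580, 17401 and 19928. Of 684 values of named members under alternatives, 0 changed direction, and Gpnmb lost its call with flanks 300 kb away. The members were named for their small p in the same test, so this was in part fixed in advance. With no count filter or a mean of at least 100 read pairs the calls were those of the main fit. Some other alternatives only left out a library outside the comparison. The sizes of the named changes were less stable, since with flanks 300 kb away 24 of 36 were smaller by over 1.5 times. Flank squares 300 kb away share bin pairs with the centre square, unlike those 500 kb away, so these sizes are not on the same scale. Why these settings moved values was not tested. At these counts the depth of single weak minima was measurable in every library, and thinning all libraries to the shallowest left the calls within 1.5 times.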
